A study of Mus musculus with 18 samples.

Results

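V(D)J recombination builds the immunoglobulin genes of a developing B cell. The RAG1 and RAG2 proteins together form the recombinase that cuts the DNA beside the gene segments, and terminal deoxynucleotidyl transferase, the product of Dntt, adds untemplated bases at the joins. Before a light chain gene has been joined, a new µ heavy chain is carried to the surface by a surrogate light chain made of VpreB and λ5 (Igll1), and the complete pre-B cell receptor (pre-BCR) signals for expansion of the pre-B cell. These genes are known for being shut off as the cell matures, and immature B cells can switch the recombinase on again to edit a self-reactive receptor. VpreB3 is a related protein that was found inside pre-B and B cells in contact with immunoglobulin chains and that is not a building block of the surface pre-BCR.

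The 6 genes described here, Rag1, Rag2, Dntt, Vpreb1, Vpreb3 and Igll1, were chosen by name from the 55487 genes counted in each library. All 6 had a row in the count files, 5 had a count of at least 1 in some library, and 2 (Vpreb3 and Igll1) passed the filter on low counts that left 15318 genes to be tested. WEHI-231 is a mouse B cell lymphoma line with surface IgM that is used as a model of immature B cells and that dies upon prolonged BCR ligation. The 18 libraries came from parental WEHI-231 cells (labelled WT) and from the TFEB-deficient clones #A-59 and #B-20, made by CRISPR/Cas9 editing of Tfeb, which encodes a transcription factor of lysosome biogenesis. Each line was left untreated (0 h) or was BCR-stimulated with 10 µg/ml F(ab')2 fragments against IgM for 6 or 18 h, with 2 libraries for each of the 9 groups. Each clone was grown from a single edited cell, so a difference between a clone and the parental cells cannot be told apart from a difference between single cells of the line. The libraries held 11223588 to 29655262 counts (median 19846544), so that 3 counts, the upper limit that a count of 0 allows, equal 0.102 to 0.268 counts per Mio counts (CPM).

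The targeted gene, Tfeb, ranged from 79.2 to 99.9 CPM over the 6 parental libraries. Libraries of #A-59 ranged from 25.5 to 40.5 CPM and those of #B-20 from 34.2 to 54.1 CPM, so that no clone library reached a parental one. Counts over the whole gene do not show which protein is left. The 6 B cell markers (Cd22, Ms4a1, Cd79a, Cd79b, Pax5 and Ighm) summed to 5429 to 11156 CPM in the libraries. The 7 T lineage markers summed to 0.148 to 1.04 CPM, with no gene above 9 counts. Of the 6 myeloid markers, Lyz2 and Cd14 had at most 1 count and Mpo at most 6, whereas Itgam had 7 to 502 counts, Csf1r 0 to 57 and Adgre1 5 to 33, and their sum was 1.92 to 27.9 CPM.

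The genes of the surrogate light chain include near-identical copies, which matters for reading their counts. Vpreb1 (ENSMUSG00000059305, GRCm38 chr16:16868401-16869255, minus strand) and Vpreb2 (ENSMUSG00000059280, chr16:17979445-17981274, plus strand) have coding sequences of 426 bases that differ at 9 positions (97.9% identity) and are identical over a run of 196 bases. The first 120 coding bases of both genes are shown from the GENCODE reference, with the 3 positions at which they differ in capitals:

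Vpreb1: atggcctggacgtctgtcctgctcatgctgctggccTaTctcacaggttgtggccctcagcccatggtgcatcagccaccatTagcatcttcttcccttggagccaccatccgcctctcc

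Vpreb2: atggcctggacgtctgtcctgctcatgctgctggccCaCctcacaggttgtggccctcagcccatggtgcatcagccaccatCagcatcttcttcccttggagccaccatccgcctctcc

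A 50-base read, the length sequenced here, covers at least 1 of these positions wherever it lies within the stretch shown, whereas reads from within the identical run of 196 bases fit both genes. Of all 50-base windows of the Vpreb1 transcripts, 24.4% also occurred in transcripts of Vpreb2 or of the neighbouring gene Top3b, which held 695 to 2279 counts per library. Vpreb2 had no count in any library.

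The 300-base promoter windows of RefSeq (GRCm38.p6, from 250 bases before the start site to 50 bases after it) were found for all 6 genes. The windows of the 3 surrogate light chain family genes that had counts in every library are printed. Each shows the sequence around an annotated start site of its gene. For Vpreb3 the gene span begins at base 75943024, upstream of the window printed, so that transcripts can also start outside this window. Which start the cells use was not tested. Capitals mark matches on either strand to the E-box CANNTG, to CCCNNGGG (the core of the palindrome bound by Ebf1) and to the octamer ATTTGCAT, and overlapping matches run together.

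Vpreb3 (chr10:75948050-75948349, plus strand): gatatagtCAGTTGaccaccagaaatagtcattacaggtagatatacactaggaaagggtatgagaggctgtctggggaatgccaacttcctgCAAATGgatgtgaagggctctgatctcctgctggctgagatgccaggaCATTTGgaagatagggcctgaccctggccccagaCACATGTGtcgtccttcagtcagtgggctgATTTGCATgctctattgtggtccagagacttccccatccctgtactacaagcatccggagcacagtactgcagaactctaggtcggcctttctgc

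Igll1 (chr16:16863936-16864235, minus strand): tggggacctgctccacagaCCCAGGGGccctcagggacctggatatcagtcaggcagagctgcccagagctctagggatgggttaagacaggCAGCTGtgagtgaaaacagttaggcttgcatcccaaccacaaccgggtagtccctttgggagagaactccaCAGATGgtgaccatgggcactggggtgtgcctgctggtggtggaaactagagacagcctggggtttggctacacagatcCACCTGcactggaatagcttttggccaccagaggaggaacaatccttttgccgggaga

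Vpreb1 (chr16:16869206-16869505, minus strand): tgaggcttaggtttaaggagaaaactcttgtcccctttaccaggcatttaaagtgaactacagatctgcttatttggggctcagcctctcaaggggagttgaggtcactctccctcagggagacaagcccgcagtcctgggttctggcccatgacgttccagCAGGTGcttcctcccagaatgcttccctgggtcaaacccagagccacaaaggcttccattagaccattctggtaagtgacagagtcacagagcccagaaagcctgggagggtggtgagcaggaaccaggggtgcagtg

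The Vpreb3 window held 5 E-box matches, 2 of which overlap, and an octamer that begins 45 bases before the start site used for this window. The Igll1 window held 3 E-box matches and 1 Ebf1 core match that begins 231 bases before the start site, and the Vpreb1 window held 1 E-box match. Among all 32851 promoter windows, 72.3% held an E-box, 13.7% an Ebf1 core and 1.74% the octamer, which was searched for only after the Vpreb3 window had been seen. CACGTG, an E-box bound by TFEB and its relatives, stood in 7.15% of all windows, and TGTTTAC, the FoxO core, in 3.65%. Neither occurred in the window of any of the 6 genes, and these letters can lie outside it. Whether the other E-box matches are bound by any factor was not tested.

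The recombinase genes were at or next to 0 in all libraries. Rag1 (ENSMUSG00000061311, chr2:101638252-101649532, minus strand) had a single count among all 18 libraries, in #B-20 after 6 h. Over the summed 378491324 counts this is 0.0026 CPM, with an exact Poisson 95% interval from 0.0001 to 0.0147 CPM that covers counting error only. Rag2 (ENSMUSG00000032864, chr2:101624712-101632528, plus strand) had no count in any library, which allows a level of up to 0.0079 CPM over all of them. The 2 genes lie side by side on chromosome 2, and Rag2 overlaps Iftap, which had 1 count in all. At this depth no difference between groups was detectable for either gene, with or without BCR stimulation and in the parental cells as in the clones.

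Dntt (ENSMUSG00000025014, chr19:41029275-41059525, plus strand) had 4 counts in all. They were 1 count in an untreated parental library, 1 in a parental library at 6 h and 2 in an untreated #A-59 library, and the 6 libraries of #B-20 had none. The summed level was 0.0106 CPM (exact Poisson 95% interval 0.0029 to 0.0270). Of the 50-base windows of Dntt, 30.7% also occur in transcripts of Opalin or C330026H20Rik, so that reads from them could be split or left out by the counting. For #B-20 the limit that its 0 counts allow was 0.0247 CPM, above the 0.0154 CPM of the parental cells, so that a difference was not detectable.

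**Figure D1:**
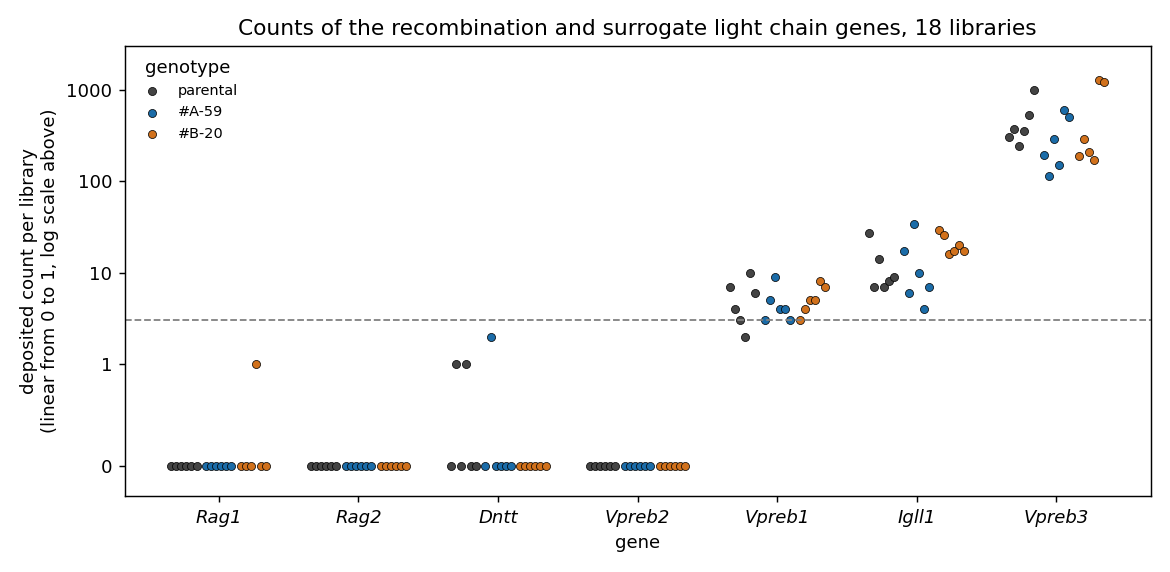
Deposited counts (y axis, linear from 0 to 1 and logarithmic above) of the 6 genes and of Vpreb2 in each of the 18 libraries, ordered within a genotype by time and replicate. The dashed line marks 3 counts. Rag1, Rag2, Dntt and Vpreb2 stay at 2 counts or fewer, Vpreb1 lies between 2 and 10, Igll1 between 4 and 34, and Vpreb3 between 115 and 1276.

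Vpreb1, which encodes the V-like component of the surrogate light chain, was present at a trace in every library. The parental replicates gave 7 and 4 counts untreated, 3 and 2 after 6 h, and 10 and 6 after 18 h. The #A-59 replicates gave 3 and 5, then 9 and 4, then 4 and 3 counts, whereas #B-20 gave 3 and 4, then 5 and 5, then 8 and 7. These counts span 2 to 10 in all. Summed over the 2 libraries, the parental level was 0.212 CPM at 0 h (exact Poisson 95% interval 0.106 to 0.380), 0.106 CPM at 6 h (0.034 to 0.247) and 0.525 CPM at 18 h (0.300 to 0.852). Without a filter on low counts Vpreb1 could be fitted, and it was called in 0 of 22 comparisons. The lowest adjusted p in edgeR's quasi-likelihood test was 0.0225, for parental cells at 18 h against 6 h, the 1 comparison with an unadjusted p below 0.05, in which 6.32% of all genes fitted in this way were called. Rag1 and Dntt, fitted in the same way, had no unadjusted p below 0.05 in any of the 22.

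Igll1 (ENSMUSG00000075370, chr16:16860671-16863985, minus strand) encodes λ5, the constant-like component of the surrogate light chain, and lies next to Vpreb1. None of the 50-base windows of its transcripts was found in another gene. The untreated parental libraries gave 0.976 and 0.290 CPM, those of 6 h 0.612 and 0.286 CPM, and those of 18 h 0.714 and 0.467 CPM. For #A-59 the untreated pair gave 0.576 and 0.311 CPM, followed by 1.29 and 0.604 CPM after 6 h and 0.210 and 0.422 CPM after 18 h. For #B-20 the untreated pair gave 1.94 and 1.61 CPM, followed by 0.788 and 1.11 CPM after 6 h and 0.711 and 0.634 CPM after 18 h. The untreated #B-20 libraries were above the other 16, whereas the parental and #A-59 libraries overlapped at 0 h. All of these values rest on 4 to 34 counts.

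A gene was called at an adjusted p (false discovery rate, FDR, over all genes tested) below 0.01 together with a log2 fold change of more than 1 in either direction. Igll1 was called in 0 of the 22 comparisons by edgeR, in which 0.0326% to 13.5% of all genes tested were called. In untreated cells it stood 2.72-fold above parental cells in #B-20 (log2 fold change 1.44, SE 0.46, 95% interval 0.47 to 2.41, adjusted p = 0.037 by edgeR) and 3.78-fold above #A-59 (1.92, SE 0.49, adjusted p = 0.012). The 18 h level of #B-20 was below its untreated level (log2 fold change -1.39, SE 0.46, adjusted p = 0.024 by edgeR), and the 18 h level of #A-59 was below its 6 h level (-1.67, SE 0.60, adjusted p = 0.030). Unadjusted p-values below 0.05 were also given by #A-59 against parental cells at 6 h (1.15, adjusted p = 0.099), by #A-59 at 6 h against 0 h (1.09, adjusted p = 0.171) and by the difference of these 6 h responses (1.63, adjusted p = 0.341). The contrast between the clones at 0 h passed the threshold under 5 of the 7 other settings that could test the gene, with log2 fold changes from 1.89 to 2.00 and adjusted p from 0.00036 to 0.017 over those 7. Leaving out the first untreated parental library moved the #B-20 contrast with parental cells to 2.59 and past the threshold, and without the second #A-59 library of 6 h the fall from 6 to 18 h in that clone passed it at -2.04. DESeq2 called Igll1 in none of the comparisons.

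Vpreb3 (ENSMUSG00000000903, chr10:75943024-75949657, plus strand) was the one gene of the 6 with a substantial transcript, and it rose between 6 and 18 h of BCR stimulation in all 3 lines. Per length it lay between 6.84 and 58.6 RPKM (CPM per kilobase of exon), against 0.0968 to 0.897 RPKM for Igll1 and 0.067 to 0.731 RPKM for Vpreb1. Against Rag2, listed at 0 everywhere, it was at least 151-fold higher per length in each library, with 3 counts per library as the floor. A processed pseudogene within the span of Vpreb3, Gm16221, held 0 to 13 counts, and 54.1% of the 50-base windows of Vpreb3 lie in Gm65908, an antisense RNA of a later annotation that was not counted here. The libraries did not keep strand, so that reads of Vpreb3 and of such a transcript cannot be told apart.

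In parental cells Vpreb3 read 10.9 and 15.4 CPM in the untreated libraries, 10.4 and 14.5 CPM after 6 h, and 46.7 and 51.0 CPM after 18 h. For #A-59 the untreated pair read 6.57 and 5.95 CPM, the 6 h pair 11.1 and 9.12 CPM, and the 18 h pair 31.5 and 30.1 CPM. For #B-20 the untreated pair read 12.7 and 17.7 CPM, the 6 h pair 10.3 and 11.1 CPM, and the 18 h pair 45.3 and 44.6 CPM. The 6 libraries of 18 h stood above the other 12 without overlap. Ordered by mean, the groups ran from parental cells at 18 h (48.9 ± 3.0 CPM, SD, n = 2), #B-20 at 18 h (45.0 ± 0.515) and #A-59 at 18 h (30.8 ± 0.989) over untreated #B-20 (15.2 ± 3.59), untreated parental cells (13.1 ± 3.13), parental cells at 6 h (12.5 ± 2.89), #B-20 at 6 h (10.7 ± 0.577) and #A-59 at 6 h (10.1 ± 1.37) to untreated #A-59 (6.26 ± 0.435). From untreated #B-20 down to #A-59 at 6 h, the libraries of each group overlapped those of the next. The 2 highest groups were not shown to differ (adjusted p = 0.649 by edgeR).

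**Figure D2:**
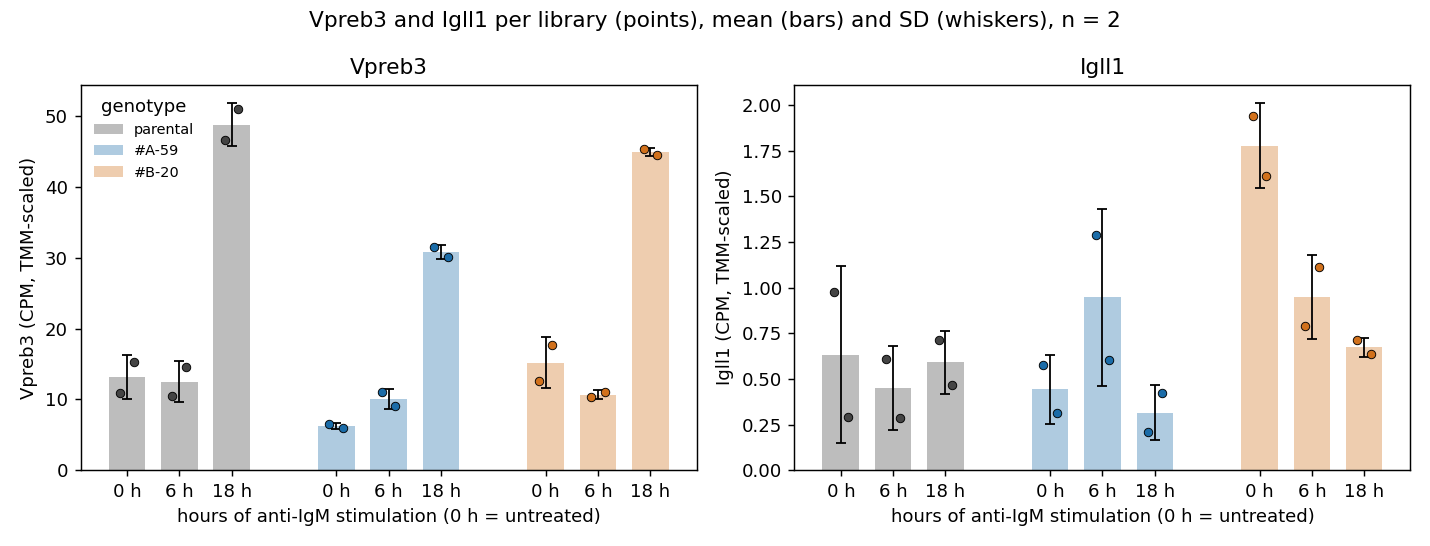
Vpreb3 (left) and Igll1 (right) in CPM on separate linear axes from 0, for parental cells, #A-59 and #B-20 at 0, 6 and 18 h. Points are the 2 libraries of a group, bars their mean and whiskers the SD. Vpreb3 at 18 h lies between 30.1 and 51.0 CPM in all 3 lines and at 17.7 CPM or below before, whereas Igll1 stays below 2 CPM with its highest values in untreated #B-20.

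After 18 h Vpreb3 was 3.74-fold higher than in untreated cells in the parental line (log2 fold change 1.90, SE 0.17, adjusted p = 8.9e-08 by edgeR), 4.89-fold higher in #A-59 (2.29, SE 0.18, adjusted p = 3.5e-08) and 2.95-fold higher in #B-20 (1.56, SE 0.17, adjusted p = 2.9e-06). It was thus 1 of the 2 members tested that was called in these comparisons, in which 10.3%, 8.76% and 4.8% of all genes tested were called in either direction. Against 6 h the log2 differences at 18 h were 1.97, 1.60 and 2.07 in the 3 lines (13.5%, 9.02% and 4.45% of all genes called). At 6 h no call was made, and the direction of the change from 0 h was not the same in the 3 lines. The log2 difference from 0 h was -0.07 in parental cells (adjusted p = 0.882 by edgeR), 0.69 in #A-59 (adjusted p = 0.023) and -0.51 in #B-20 (adjusted p = 0.181). Of all genes tested, 2.62%, 1.39% and 0.385% were called in these contrasts, in the same order. The group means lay closer together at 6 h (12.5, 10.1 and 10.7 CPM) than at 0 h (13.1, 6.26 and 15.2 CPM). The 6 h and 18 h comparisons of a line share its untreated libraries. The response of a clone minus the parental response was 0.76 for #A-59 at 6 h (SE 0.26, 95% interval 0.21 to 1.31, unadjusted p = 0.0094 and adjusted p = 0.166 by edgeR), -0.44 for #B-20 at 6 h (adjusted p = 0.831), 0.39 for #A-59 at 18 h (95% interval -0.13 to 0.91, adjusted p = 0.899) and -0.34 for #B-20 at 18 h (95% interval -0.84 to 0.17, adjusted p = 0.574). Among all genes 0.339%, 0.131%, 0.0326% and 0.163% were called in these 4 terms, in the same order. After adjustment over all genes the size of the response was therefore not shown to differ between either clone and the parental line. The interval of the #A-59 term at 6 h nevertheless lay above 0. The responses of the 2 clones were not tested against each other.

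The summed B cell markers moved in the same direction as Vpreb3 at 18 h. Their sum was 7543 to 8221 CPM in untreated parental libraries and 10122 to 10409 CPM at 18 h. The corresponding ranges were 7873 to 7923 and 10495 to 11156 CPM for #A-59, and 6688 to 6936 and 8675 to 9142 CPM for #B-20. At 6 h the sum lay below its untreated range in each line, at 5429 to 5636 CPM (parental), 6660 to 7291 CPM (#A-59) and 5629 to 5832 CPM (#B-20). The log2 difference of Vpreb3 from 0 h to 6 h was -0.07, 0.69 and -0.51 in the same order, with no call. The summed myeloid markers moved as well, from 2.13 to 2.28 CPM untreated to 8.25 to 9.01 CPM at 18 h in parental libraries, from 7.86 to 9.58 CPM to 27.6 to 27.9 CPM in those of #A-59, and from 3.01 to 4.402 CPM to 7.04 to 7.05 CPM in those of #B-20. Of the myeloid genes, Itgam was called higher at 18 h in parental cells, and Itgam and Csf1r were called higher in #A-59, whereas Lyz2 and Cd14 had at most 1 count in any library. The part of either list in the Vpreb3 result was not tested. In bulk libraries of a line that dies under this stimulus, a shift towards cells that hold more of a transcript and more of it per cell cannot be told apart.

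In untreated cells Vpreb3 was 2.08-fold lower in #A-59 than in parental cells (log2 fold change -1.06, SE 0.19, 95% interval -1.45 to -0.66, adjusted p = 0.00046 by edgeR), with 4.78% of all genes called. In #B-20 it was not called against parental cells (0.22, 95% interval -0.16 to 0.59, adjusted p = 0.459 by edgeR, 5.16% of all genes called), and the difference between the clones was itself called (1.27, SE 0.19, adjusted p = 0.00012, 3.85% of all genes called). The loss of TFEB was thus accompanied by a lower Vpreb3 level in 1 of the 2 untreated clones. The #A-59 value lay close to the threshold for size: without the second #A-59 library of 0 h it was -0.99, and without the second untreated parental library it was -0.80 (adjusted p = 0.017 by edgeR), so that either library decides the call, whereas the contrast between the clones stayed between 1.0 and 1.49 with each library left out. The comparisons of both clones share the parental libraries. The summed myeloid markers differed in the opposite direction, at 2.13 to 2.28 CPM in untreated parental and 7.86 to 9.58 CPM in untreated #A-59 libraries, and their part was not tested.

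During stimulation no clone was called against parental cells. At 18 h #A-59 stood at -0.67 against parental cells (SE 0.16, adjusted p = 0.0075 by edgeR, short of the size required, with 4.92% of all genes called) and its 2 libraries lay below those of the other lines. At 6 h the same contrast was -0.30 (adjusted p = 0.227 by edgeR, 7.91% of all genes called) with overlapping libraries. For #B-20 the contrasts with parental cells were -0.23 at 6 h (adjusted p = 0.414 by edgeR, 6.73% of all genes called) and -0.12 at 18 h (95% interval -0.46 to 0.21, adjusted p = 0.649, 6.21% of all genes called). The clones differed by 0.07 at 6 h and by 0.55 at 18 h (adjusted p = 0.018 by edgeR), neither of which was called, with 5.82% and 4.82% of all genes called.

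**Figure D3:**
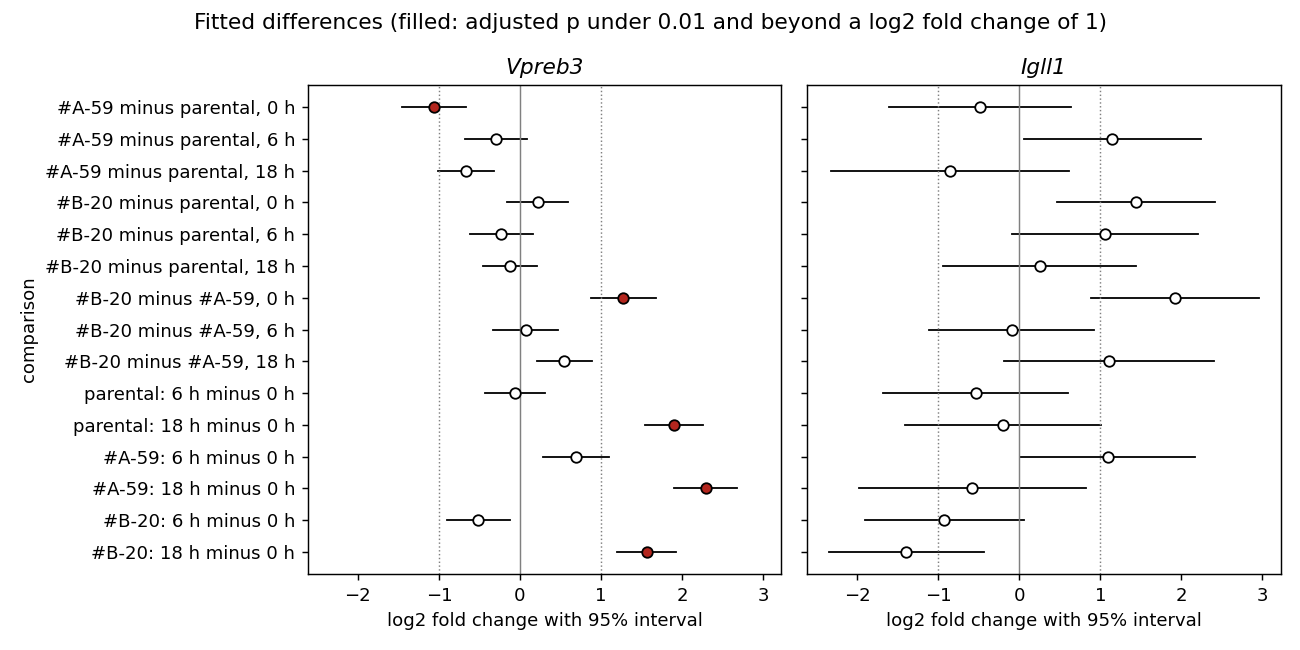
Fitted log2 fold changes of Vpreb3 (left) and Igll1 (right) with 95% intervals (lines) for 15 of the comparisons, with dotted lines at 1 and -1 and filled points for calls. For Vpreb3 the 18 h responses lie at 1.56 to 2.29 and #A-59 at 0 h at -1.06, whereas the wide intervals of Igll1 hold no filled point.

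As a description of which genes ran most like these 2, Pearson's r was taken over the 18 libraries on log2(CPM + 1). For Vpreb3 the highest values were those of 9630028I04Rik (0.971), Sesn3 (0.960), which encodes a stress-responsive sestrin, and Ube2r2 (0.950), a ubiquitin-conjugating enzyme. For Igll1 they were Gm4617 (0.818), Sdha (0.817), a subunit of mitochondrial complex II, and Gm18942 (0.817). The points share the 9 groups and the libraries' depth, and Gm4617 and Gm18942 had mean counts of only 8.56 and 10.4.

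The machinery around these genes was expressed. In each comparison most of its genes were not called, which was also so among all genes tested. Lists of 62 genes (end joining, mutation and class switching, pre-BCR partners, transcription factors and genes of early B cell stages) held 54 that passed the filter. Calls against parental cells numbered 5 (0 h), 5 (6 h) and 2 (18 h) of the 54 for #A-59, and 5, 5 and 3 for #B-20. Against 0 h, 1, 2 and 0 were called at 6 h and 6, 5 and 3 at 18 h in parental cells, #A-59 and #B-20. As a share of the 54, each clone gave 9.26% at 0 h, against 4.78% (#A-59) and 5.16% (#B-20) of all genes, and 9.26% at 6 h, against 7.91% and 6.73%. At 18 h the shares were 3.70% for #A-59 and 5.56% for #B-20, against 4.92% and 6.21%. The 18 h contrasts with 0 h gave 11.1%, 9.26% and 5.56% in parental cells, #A-59 and #B-20, against 10.3%, 8.76% and 4.8% of all genes. In the same order, the 6 h contrasts with 0 h gave 1.85%, 3.70% and 0%, against 2.62%, 1.39% and 0.385% of all genes. Whether the list differed from all genes was not tested.

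All 14 genes of the end-joining list, which also holds Hmgb1, Hmgb2, Atm and Trp53bp1, passed the filter. None was called in either clone against parental cells, which in a list of this length is near the 4.78% to 7.91% called among all genes. Their median log2 fold changes there lay between -0.13 and 0.05, against -0.02 to 0.01 over all genes. Xrcc5, which encodes the Ku80 subunit of the Ku end-binding complex, was the 1 gene called after stimulation. It stood at 97.2 ± 5.48 CPM in untreated parental cells and at 47.3 ± 0.28 CPM at 18 h (SD, n = 2), a log2 fold change of -1.04, and it was lower by -1.10 in #A-59, whereas -0.66 in #B-20 was not called. All 7 genes of the list of mutation and class switching passed the filter, and none was called in a clone, which for so few genes is near the share of all genes too. Exo1, an exonuclease of mismatch repair, fell at 18 h in parental cells (-1.24) and in #A-59 (-1.48) and was at -0.76 in #B-20 without a call.

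Among the 10 partners of the pre-BCR and BCR, Iglc1, a gene of a λ constant region, was called in both clones against parental cells at all 3 times, Iglc3 at 0 and 6 h and Iglc2 at none. Untreated parental cells held 6.93 ± 1.26 CPM of Iglc1, untreated #A-59 held 0.41 ± 0.15 CPM and untreated #B-20 held 0.26 ± 0.01 CPM (SD, n = 2). It was lower in both clones at all times, the log2 fold changes being -4.12 (0 h), -3.40 (6 h) and -3.65 (18 h) for #A-59, and -4.72, -3.44 and -3.85 for #B-20. The clone libraries held only 2 to 16 counts of it, and the 6 h values moved with single libraries: they were -5.12 without the first and -2.84 without the second #A-59 library of 6 h, and -2.61 without the first and -4.84 without the second #B-20 library of 6 h, with the calls kept. Iglc3, at 31.0 ± 1.23 CPM in untreated parental cells, was lower in both clones at 0 h (-1.14 and -1.02) and 6 h (-1.35 and -1.08), and its 18 h values of -0.98 and -0.80 were not called. The #B-20 value at 0 h lay at the threshold and fell short of it without the second untreated library of parental cells (-0.98) or of #B-20 (-1.0). Of the 50-base windows of Iglc3, 23.1% occur in other transcripts, Iglc2 among them, and none of those of Iglc1 do. Syk, the kinase downstream of both receptors, was lower in parental cells at 6 h and higher in #A-59 than in parental cells at that time. Ighm, Cd79a, Cd79b, Blnk, Btk, Igkc and Iglc2 were called in no clone contrast and in no contrast with 0 h.

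All 19 transcription factors of the list were measured, among them Tcf3, Ebf1, Pax5, Ikzf1 and Foxo1, which are known to act on these genes in pro-B and pre-B cells. None was called in an untreated clone, which for 19 genes is near the 4.78% (#A-59) and 5.16% (#B-20) called among all genes. Irf4, a factor of pre-B and plasma cell differentiation, fell from 162 ± 1.30 to 50.01 ± 6.10 CPM at 18 h in parental cells (log2 fold change -1.70) with falls in #A-59 (-1.09) and #B-20 (-1.12) too. It was called in #A-59 at 6 h too (-1.11), where it was also lower than in parental cells (-1.10). The #A-59 call at 18 h was lost without its second 18 h library (-0.97). Id2, an inhibitor of E proteins, was higher at 18 h in #A-59 (1.89) and #B-20 (1.73) and lower in #A-59 than in parental cells at 6 h (-1.42), but it stood at 0.67 to 4.27 CPM and its 18 h calls were lost without either untreated library or the first 18 h library of the clone (down to 1.56 for #A-59 and 0.82 for #B-20). The contrast with parental cells lost its call without any one of 12 of the 18 libraries (-1.29 to -1.56). The same contrast in #B-20 (-1.28, adjusted p = 0.024 by edgeR) and the 6 h difference from 0 h in parental cells (1.54, adjusted p = 0.011) were not called, but passed under 4 and 5 of 8 other settings. Foxo1 was higher and Myb lower at 18 h in parental cells, and Id3 was higher in #B-20 than in parental cells at 6 h. Syk, Foxo1, Myb and Id3 are named after their values were seen.

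The genes of early B cell stages were mostly at few counts, like Rag1 and Rag2. Il7r, Kit, Flt3, Cd93, Sox4, Enpep, Arpp21 and Erg, 8 of the 12, had at most 8 counts in any library and were not tested. Lef1, a Wnt pathway factor of pro-B cells, stood at 1.56 ± 0.26 CPM in the untreated parental line, against 3.56 ± 0.16 CPM for #A-59 and 8.52 ± 1.54 CPM for #B-20 (SD, n = 2). It was higher in #B-20 at all times (log2 fold changes of 2.46, 2.06 and 2.45 at 0, 6 and 18 h) and in #A-59 at 0 h (1.20), and it fell in #A-59 at 6 h (-1.06). The #A-59 calls were lost without the first untreated parental library (1.03) and, at 6 h, without either untreated #A-59 library or its first 6 h library (-1.02 to -1.11). Spn, which encodes CD43, was lower in #B-20 at all times (-1.83, -1.92 and -1.99) and rose at 18 h in parental cells (1.49) and in #B-20 (1.34, or 0.96 and no call without its second 18 h library). Bst1, which encodes the BP-3 surface enzyme, was lower in untreated #A-59 (-1.10) and #B-20 (-1.02), and the latter was not called without the second untreated library of #B-20 (-0.90) or of parental cells (-0.95). It rose at 18 h in #A-59 (1.16), and the same contrast was 0.98 in parental cells and 0.996 in #B-20, both just short of the size required (adjusted p = 6.6e-05 and 0.00023 by edgeR). The #B-20 value passed under 4 of 8 other settings, at 1.01 to 1.11. Il2ra, named after its values were seen, was higher in #A-59 at 0 and 18 h.

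**Figure D4:**
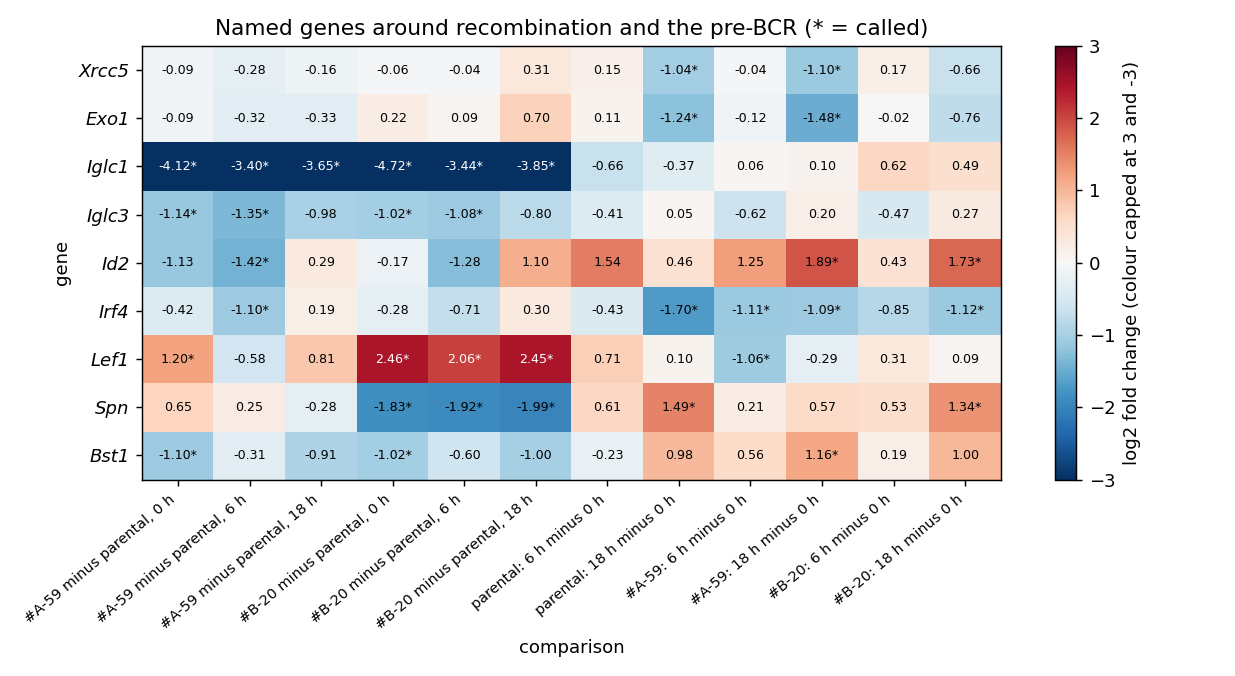
Log2 fold changes (colour and number) of 9 genes of the surrounding lists in 12 comparisons, with an asterisk for a call. Iglc1 is lower in both clones at all 3 times, by -3.40 to -4.72, whereas Lef1 and Spn differ between #A-59 and #B-20.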

How the data were processed

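The authors made 18 mRNA libraries from total RNA of WEHI-231 cells with a kit that does not keep strand. They sequenced single-end reads of 50 bases and deposited raw counts per Ensembl gene. The submitters' processing notes name bcl2fastq 2.20.0.422, STAR 2.5, featureCounts 1.5.0-p1 and GRCm38, and the counting options are not given in the sources used here. Gene names came from GENCODE vM39, which matched 93.2% of the 55487 genes and 99.6% of the counts, coordinates and promoters from RefSeq (GRCm38), and lengths from the GENCODE exons. Libraries were grouped by their titles. Replicates differed beyond sampling noise and were kept as 2 samples. The study describes the 2 libraries of a group as independent experiments, and p-values measure the spread between them. Counts were filtered with filterByExpr, scaled by TMM and fitted in 1 model over all 9 groups with edgeR 4.0.16 (quasi-likelihood, robust, R 4.3.3, Benjamini-Hochberg adjustment, calls at FDR below 0.01 and at a log2 fold change beyond 1 in either direction). In counts simulated from the fitted spread of each gene, 200 genes were changed by a log2 fold change of 2 in untreated #A-59. The fit recovered 188 of them with 2 false calls. Changes near the threshold and differences of responses were not simulated. The 22 comparisons were clones against parental cells and each other, times within a line and differences of responses. The alternatives included DESeq2 1.42.0. The 6 genes and all lists were chosen with earlier results of these data known, and 2 genes of the lists are not reported here. Genes named from the lists were those called alike in both clones at one time or after stimulation in 2 or more lines at one time, at most 4 per list, and the 3 genes most like a member with a mean of at least 10 counts.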

Additional observations from a re-analysis of the deposited data

Results flagged for a closer look

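These values are listed because a test of the difference between the 2 clones, or between the responses of a clone and of the parental cells, passed the threshold in edgeR's quasi-likelihood fit. Vpreb3 was higher in untreated #B-20 than in untreated #A-59 by a log2 fold change of 1.27 (SE 0.19, adjusted p = 0.00012), with 12.7 and 17.7 CPM against 6.57 and 5.95 CPM.

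Lef1 was higher in #B-20 than in #A-59 by 1.26 at 0 h, 2.63 at 6 h and 1.64 at 18 h, and its 6 h response in #A-59 was lower than in parental cells by -1.77 (adjusted p = 0.0035 by edgeR). Spn was lower in #B-20 than in #A-59 by -2.48 at 0 h, -2.17 at 6 h and -1.71 at 18 h. Exo1 was higher in #B-20 than in #A-59 at 18 h by 1.03, with means of 44.3 ± 3.32 and 21.7 ± 1.04 CPM (SD, n = 2). Each clone descends from 1 cell, so these differences cannot be told apart from differences between single cells of the line.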

How the results depend on the processing

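The calls and non-calls of Vpreb3 in all 22 comparisons held under the 8 alternatives run beside leaving out libraries (DESeq2, its size factors in edgeR, no filter on low counts, a minimum of 10 counts per library, a fit of only the libraries compared, a replicate block, a GC correction and both of these together). Igll1 was not tested with at least 10 counts in every library. It passed the threshold without a low-count filter for #B-20 against parental cells at 0 h (1.42), #B-20 at 18 h against 0 h (-1.36), #A-59 at 18 h against 6 h (-1.70) and #B-20 against #A-59 at 0 h (1.89). The contrast between the clones at 0 h also passed with the GC correction (1.94), with only the libraries compared (1.92) and with the replicate block (1.98). With block and GC correction together it was 2.00, the other #B-20 contrasts named here passed at 1.48 and -1.41, and #B-20 against #A-59 at 6 h changed sign to 0.0070. The block gave 777 calls over all genes in untreated #A-59 against 732 without it. The labels tie no replicate number to an experiment. Over 36 pairs of groups the deviations of same-numbered libraries correlated at -0.026 to 0.320 (median 0.078), and 14 exceeded 0.1. These values were low but leaned to the positive side, so whether the numbers pair the libraries was not settled. Among genes without a call, Xrcc5 in #A-59 at 6 h against 0 h changed sign to 0.0040 with the GC correction and 0.0037 with block and GC correction, and Iglc3 in parental cells at 18 h to -0.021 without a filter.

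Of the pathway genes, the GC correction left 3 called in #A-59 against parental cells at 6 h, the 10-count minimum left 1 at 18 h, and in parental cells at 6 h against 0 h 2 were called by DESeq2, without a filter, with only the libraries compared and with the block alone or with the GC correction. With only the libraries compared, 1 was called in #A-59 at 6 h against 0 h. With Spearman's rho in place of Pearson's r, 0 of the 3 genes named for Vpreb3 and 1 of the 3 for Igll1 recurred. With 1 library left out in turn, the counts ranged from 3 to 5 for untreated #B-20 against parental cells and from 1 to 2 for the 6 h contrasts of parental cells and of #A-59 with 0 h.

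Over all genes, counts of calls differed by more than 1.5 times in these cases. The fit without a filter gave 97 in place of 59 for #B-20 at 6 against 0 h. The 10-count minimum, which tested 11829 genes, gave 393 in place of 732 for #A-59 against parental cells at 0 h, 433 in place of 753 for #A-59 against parental cells at 18 h, 718 in place of 1212 for #A-59 against parental cells at 6 h, 334 in place of 589 for #B-20 against #A-59 at 0 h, 416 in place of 738 for #B-20 against #A-59 at 18 h, 521 in place of 891 for #B-20 against #A-59 at 6 h, 472 in place of 790 for #B-20 against parental cells at 0 h, 565 in place of 951 for #B-20 against parental cells at 18 h, 599 in place of 1031 for #B-20 against parental cells at 6 h and 254 in place of 402 for parental cells at 6 against 0 h. The fit of only the libraries compared gave 49 in place of 213 for #A-59 at 6 against 0 h. Leaving out library 2 of parental cells at 0 h gave 240 in place of 402 for parental cells at 6 against 0 h. Leaving out library 2 of #A-59 at 0 h gave 110 in place of 213 for #A-59 at 6 against 0 h. Leaving out library 1 of #A-59 at 6 h gave 111 in place of 213 for #A-59 at 6 against 0 h and 565 in place of 891 for #B-20 against #A-59 at 6 h. Leaving out library 2 of #B-20 at 0 h gave 27 in place of 59 for #B-20 at 6 against 0 h. Leaving out library 1 of #B-20 at 18 h gave 401 in place of 735 for #B-20 at 18 against 0 h and 431 in place of 682 for #B-20 at 18 against 6 h. 

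When 1 library at a time was left out, the log2 fold changes of Vpreb3 ranged from -1.29 to -0.80 for #A-59 against parental cells at 0 h, -0.052 to 0.48 for #B-20 against parental cells at 0 h, -0.45 to 0.021 for #B-20 against parental cells at 6 h, -0.33 to 0.19 for parental cells at 6 against 0 h and -0.060 to 0.22 for #B-20 against #A-59 at 6 h. Those of Igll1 ranged from -1.07 to 0.67 for #A-59 against parental cells at 0 h, 0.86 to 2.59 for #B-20 against parental cells at 0 h, -0.087 to 0.53 for #B-20 against parental cells at 18 h, -1.16 to 0.61 for parental cells at 6 against 0 h, -0.81 to 0.92 for parental cells at 18 against 0 h, -0.14 to 0.94 for parental cells at 18 against 6 h, -2.22 to -0.96 for #A-59 at 18 against 6 h, -1.54 to 0.23 for the 6 h response of #B-20 minus that of parental cells, -1.51 to 0.22 for the 18 h response of #A-59 minus that of parental cells, 1.61 to 2.49 for #B-20 against #A-59 at 0 h and -0.47 to 0.62 for #B-20 against #A-59 at 6 h. Signs of other named genes changed in contrasts without a call, which ranged over -0.14 to 0.047 for Xrcc5 in #A-59 at 6 against 0 h, -0.086 to 0.014 for Exo1 in #B-20 at 6 against 0 h, -1.66 to 0.62 for Iglc1 in #A-59 at 6 against 0 h, -0.79 to 1.44 for Iglc1 in #B-20 at 6 against 0 h, -0.30 to 0.45 for Iglc1 in #A-59 at 18 against 0 h, -0.023 to 0.058 for Iglc3 in parental cells at 18 against 0 h, -0.46 to 0.084 for Id2 in #B-20 against parental cells at 0 h, -0.00056 to 0.61 for Id2 in #A-59 against parental cells at 18 h, -0.23 to 0.80 for Id2 in #B-20 at 6 against 0 h, -0.14 to 0.24 for Lef1 in parental cells at 18 against 0 h and -0.11 to 0.30 for Lef1 in #B-20 at 18 against 0 h. The cause was not tested. A fit with 1 library left out assumes that the remaining one varies like the other groups. Depth limits Rag1, Rag2, Dntt and Vpreb1, for which levels and limits could be given but no test within the filter.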
